A study of Rattus norvegicus with 6 samples.

Results

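The immediate early transcription factors described here are Fos, Jun, Junb, Egr1, Atf3 and Myc. They were chosen by name and Ensembl identifier: ENSRNOG00000008015 (Fos), ENSRNOG00000026293 (Jun), ENSRNOG00000042838 (Junb), ENSRNOG00000019422 (Egr1), ENSRNOG00000003745 (Atf3) and ENSRNOG00000004500 (Myc). All 6 were found among the 32883 gene identifiers counted. Their mRNA was compared in rat bone marrow mesenchymal stem cells (rBMSCs) after 4 days of culture, with 3 libraries in each of the groups, 3D and 2D Nichoids. Both groups held primary cells from Lewis rats, kept for few passages and seeded at the same number in the same serum-containing medium, and neither received a further treatment. The 3D Nichoid is a laser-polymerized scaffold of stacked, connected grids that cells enter, while the 2D Nichoid carries a single floor of the same grid and served as the flat control.

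Immediate early genes are switched on within minutes of a signal such as serum, a growth factor or mechanical strain, from transcription factors already present in the cell and without new protein synthesis. Their mRNAs are short-lived, and the first pulse fades unless the signal persists. FOS and JUN proteins pair through leucine zippers into AP-1, EGR1 binds GC-rich sites through zinc fingers, ATF3 is a related zipper protein induced by stress, and MYC pairs with MAX to drive growth genes.

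At day 4, 4 of the 6 genes were lower in 3D than in 2D Nichoids and passed the test, and 2 did not pass it. Over all 13523 genes tested, 37.8% passed, 18.8% lower and 18.9% higher in 3D Nichoids. Fos changed most, being 32.1% lower, followed by Jun at 13.5%, Egr1 at 8.92% and Junb at 8.39%. Atf3 and Myc had log2(FC) values of -0.15 and -0.024 and did not pass. None of the 6 reached the cutoffs the study set for a differentially expressed gene (DEG), which combine an adjusted p value no higher than 0.05 with an absolute log2(FC) above 1. DEGs made up 3.42% of all tested genes, and 1.37% were DEGs lower in 3D Nichoids, so 0 of 6 is near that share.

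The setting of these counts was as follows. Total counts ranged from 38747857 to 41860684 in 3D Nichoid libraries and from 38353363 to 39112286 in 2D Nichoid libraries. Levels are counts relative to the library total (CPM) after TMM scaling, which adjusts each library for its composition, and log2(FC) is the log2 change of 3D against 2D Nichoids from the quasi-likelihood test of edgeR. In a principal component analysis, replicate C of the 2D Nichoids stood apart from the other 2D libraries on the second component (35.96 against -22.9 and -22.2), so values without it are given beside those with it. No source says that the replicates came from separate animals, so the p values measure the spread between these libraries, which may be technical. In bulk RNA, fewer cells that express a gene and less of its RNA per cell cannot be told apart. The labelled cell type could not be checked against marker genes, since the identifiers of those genes were not paired with symbols in the tables used here.

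Serum response factor binds a short sequence called the CArG box, and CREB and ATF proteins bind the cAMP response element (CRE). RefSeq promoters of assembly GRCr8 were matched for 2 of the 6 genes, Egr1 and Junb. Both are shown, as sequence was at hand for these members and each passed the test. Each stretch holds the 250 bases before the annotated start, 5′ to 3′ on the plus strand, and capitals mark the CArG boxes and the CRE core TGACG, which reads CGTCA on the other strand. Egr1 lies at chr18:26736828-26737077 and Junb at chr19:40080876-40081125 of that assembly, which is not the build the reads were counted on.
Egr1: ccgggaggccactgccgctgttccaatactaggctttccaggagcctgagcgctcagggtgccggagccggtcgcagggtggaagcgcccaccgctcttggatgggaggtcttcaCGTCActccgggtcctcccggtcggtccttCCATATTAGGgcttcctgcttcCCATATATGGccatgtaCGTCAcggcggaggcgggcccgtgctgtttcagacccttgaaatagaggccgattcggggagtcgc
Junb: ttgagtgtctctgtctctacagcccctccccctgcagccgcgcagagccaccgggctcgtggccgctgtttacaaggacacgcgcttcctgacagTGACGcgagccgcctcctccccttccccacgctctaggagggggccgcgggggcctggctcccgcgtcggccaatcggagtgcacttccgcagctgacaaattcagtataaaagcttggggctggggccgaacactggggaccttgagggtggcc

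The Egr1 stretch held 2 CArG boxes, CCATATTAGG beginning 105 bases and CCATATATGG beginning 83 bases before the start. Among 33469 RefSeq promoter windows of the same length, 250 bases before and 50 after the start, 1.64% held a CArG box on either strand and 0.0209% held 2 or more. No CArG box lay in the Junb window. The CRE core was found at 2 places in Egr1 and at 1 in Junb, 155 bases before its start, and in 21.2% of all windows. The CAAT box CCAAT was present in both, beginning 228 bases before the start in Egr1 and 85 bases before it in Junb, and in 37.5% of all windows. The full CRE TGACGTCA, the AP-1 site TGACTCA, the EGR sites GCGGGGGCG and GCGTGGGCG and the E-box CACGTG were searched on both strands and had no match in either window. They were found in 1.83%, 4.63%, 2.73%, 0.544% and 6.42% of all windows, in that order. These matches describe letters only, and binding was not measured.

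Fos encodes a partner with which JUN proteins form a stable AP-1 dimer. Cells in 3D Nichoids gave 1844 (A), 1411 (B) and 1679 (C) counts. Those on 2D Nichoids gave 2441 (A), 2526 (B) and 2505 (C) counts. Every 3D Nichoid library lay below every 2D Nichoid library, and the lowest was 3D Nichoid B.

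In TMM-scaled CPM, Fos stood at 42.3 ± 4.16 (SD, n = 3) in 3D Nichoids and 62.3 ± 1.18 (SD, n = 3) in 2D Nichoids. The highest 3D value and the lowest 2D value were 15.8 CPM apart. Its log2(FC) was -0.56 (SE 0.063, edgeR adjusted p value 1.15e-09), a level 32.1% lower with a 95% interval from 37.9% to 25.8% lower. The 3D libraries varied by 9.85% of their mean and the 2D libraries by 1.89%, where the sampling of reads alone would give 2.47% and 2.00%. Without 3D Nichoid B the log2(FC) was -0.48 (adjusted p value 5.79e-07, edgeR), and without 2D Nichoid C it was -0.57 (adjusted p value 4.74e-10, edgeR). Of all tested genes, 16.2% had a larger absolute log2(FC) and 5.61% had a smaller p value.

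**Figure D1:**
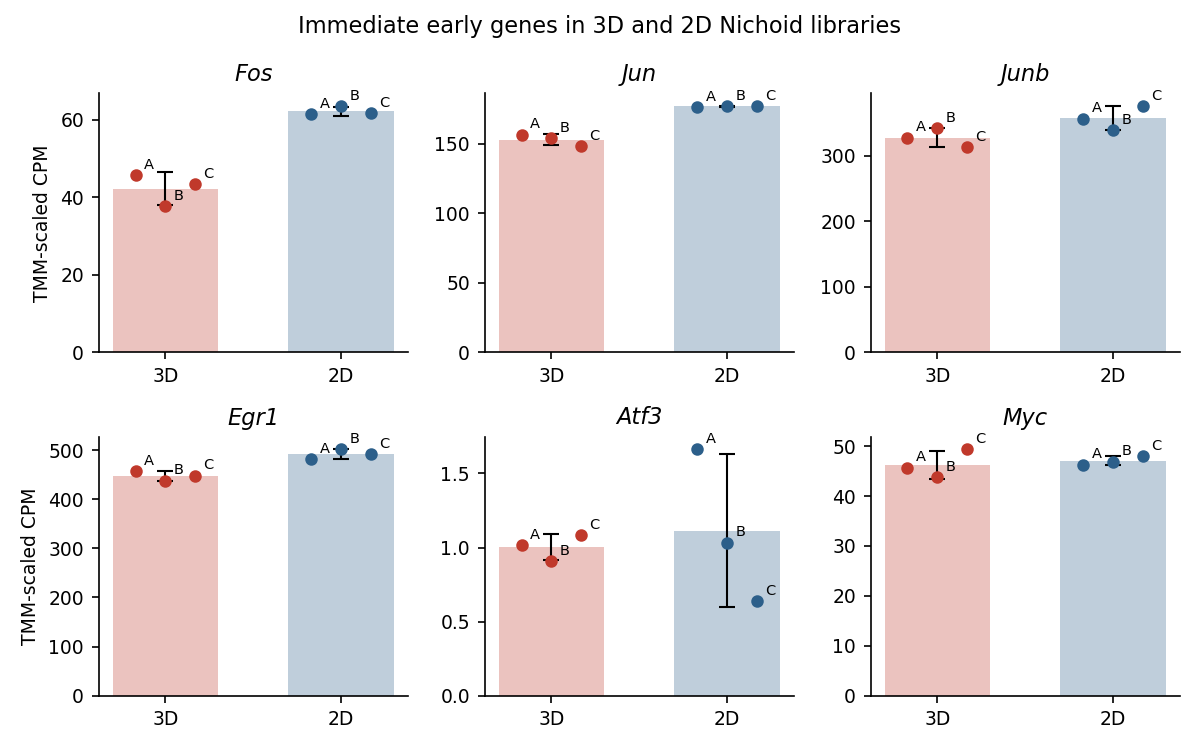
Level of each of the 6 genes in TMM-scaled CPM (vertical axes, each from 0) in 3D and 2D Nichoids, with points for replicates A, B and C, bars for the mean and error bars for the SD over 3 libraries. The groups do not overlap for Fos, Jun and Egr1, overlap by 2.83 CPM for Junb, and overlap for Atf3 and Myc.

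Jun encodes the central AP-1 subunit, which pairs with FOS proteins or with itself. Its counts were 6303 (A), 5768 (B) and 5758 (C) for the 3D group and 6996 (A), 7022 (B) and 7198 (C) for the 2D group. The groups did not overlap, and the 2D libraries were nearly equal after scaling. The level was 153.0 ± 4.05 CPM (SD, n = 3) in 3D Nichoids against 176.8 ± 0.447 CPM (SD, n = 3) in 2D Nichoids.

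The log2(FC) of Jun was -0.21 (SE 0.035, adjusted p value 4.28e-06, edgeR), or 13.5% lower with a 95% interval from 17.6% to 9.16% lower. The 2D libraries varied by 0.253% of their mean, less than the 1.19% that the sampling of reads would give. The spread of 2.65% in 3D Nichoids was above the corresponding 1.30%. Without 2D Nichoid C the log2(FC) was -0.21 as well (adjusted p value 6.68e-06, edgeR). A larger absolute log2(FC) was found in 49.9% of the tested genes.

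Junb encodes a JUN protein that often restrains JUN and slows the cell cycle, though it also forms AP-1 with FOS. The 3D libraries held 13203 (A), 12841 (B) and 12125 (C) counts, and the 2D libraries held 14160 (A), 13492 (B) and 15289 (C). The raw counts did not overlap, but after TMM scaling 3D Nichoid B (342.7 CPM) lay above 2D Nichoid B (339.8 CPM). The remaining 3D libraries, at 327.7 and 312.8 CPM, were below all 2D libraries.

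The mean of Junb was 327.7 ± 15.0 CPM (SD, n = 3) in 3D Nichoids and 357.7 ± 18.3 CPM (SD, n = 3) in 2D Nichoids. Its log2(FC) stood at -0.13 (edgeR SE 0.031 and adjusted p value 0.0010), a level 8.39% lower, with a 95% interval from 12.3% to 4.34% lower. The value was -0.088 without 2D Nichoid C (adjusted p value 0.0183, edgeR) and -0.093 without 3D Nichoid C (adjusted p value 0.0357, edgeR), the largest adjusted p value for Junb over 13 alternative fits. Junb varied by 4.56% and 5.11% of its mean in 3D and 2D Nichoids, above the 0.887% and 0.836% from sampling of reads.

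Egr1 encodes a zinc finger factor induced by growth factors and by strain through serum response factor. Counts of 18412 (A), 16402 (B) and 17369 (C) were found in 3D libraries, beside 19090 (A), 19898 (B) and 19987 (C) in 2D libraries. No 3D library reached the lowest 2D library. After scaling, the level was 447.6 ± 9.67 CPM (SD, n = 3) against 491.5 ± 10.1 CPM (SD, n = 3), and the nearest libraries of the groups were 24.1 CPM apart.

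The log2(FC) of Egr1 was -0.13 (SE 0.024, adjusted p value 9.87e-06, edgeR), or 8.92% lower with a 95% interval from 11.9% to 5.87% lower. It had the smallest SE of the 6 genes and the highest counts. The values without 2D Nichoid C (-0.13, adjusted p value 1.56e-05, edgeR) and without 3D Nichoid B (-0.12, adjusted p value 0.000889, edgeR) stayed past the threshold. A larger absolute log2(FC) was found in 65.0% of the tested genes, and in 67.1% for Junb.

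Atf3 encodes a stress-induced repressor of the ATF and CREB family. Its counts were by far the fewest, at 41 (A), 34 (B) and 42 (C) in 3D libraries and 66 (A), 41 (B) and 26 (C) in 2D libraries. The highest and the lowest of the 6 libraries were both 2D Nichoids, A and C, and the 3D libraries lay between them. The level was 1.003 ± 0.0890 CPM (SD, n = 3) in 3D Nichoids and 1.11 ± 0.516 CPM (SD, n = 3) in 2D Nichoids.

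For Atf3 the log2(FC) stood at -0.15 (SE 0.47, edgeR adjusted p value 0.843). The 95% interval ran from 53.4% lower to 74.9% higher, so changes as large as that of Fos, in either direction, could not be told from none at this depth and spread. The 2D libraries varied by 46.4% of their mean where sampling of reads gives 15.0%. The log2(FC) was -0.43 without 2D Nichoid C (adjusted p value 0.493, edgeR) and 0.27 without 2D Nichoid A (adjusted p value 0.750, edgeR), so that its direction rested on single libraries.

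Myc encodes a factor that raises ribosome production and cell growth. The 3D group gave 1841 (A), 1642 (B) and 1914 (C) counts and the 2D group 1837 (A), 1861 (B) and 1950 (C). After scaling the highest value (3D Nichoid C, 49.4 CPM) and the lowest (3D Nichoid B, 43.8 CPM) both came from 3D Nichoids. The means were 46.3 ± 2.83 CPM and 47.1 ± 0.869 CPM (SD, n = 3 each).

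The log2(FC) of Myc was -0.024 (SE 0.062, adjusted p value 0.808, edgeR), with a 95% interval from 9.86% lower to 7.38% higher. Myc was counted about as often as Fos and with the same precision (SE 0.062 and 0.063), and its interval does not reach the 32.1% by which Fos was lower. Without 3D Nichoid B the log2(FC) was 0.015 (adjusted p value 0.907, edgeR), and without 2D Nichoid C it was -0.008 (adjusted p value 0.942, edgeR).

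**Figure D2:**
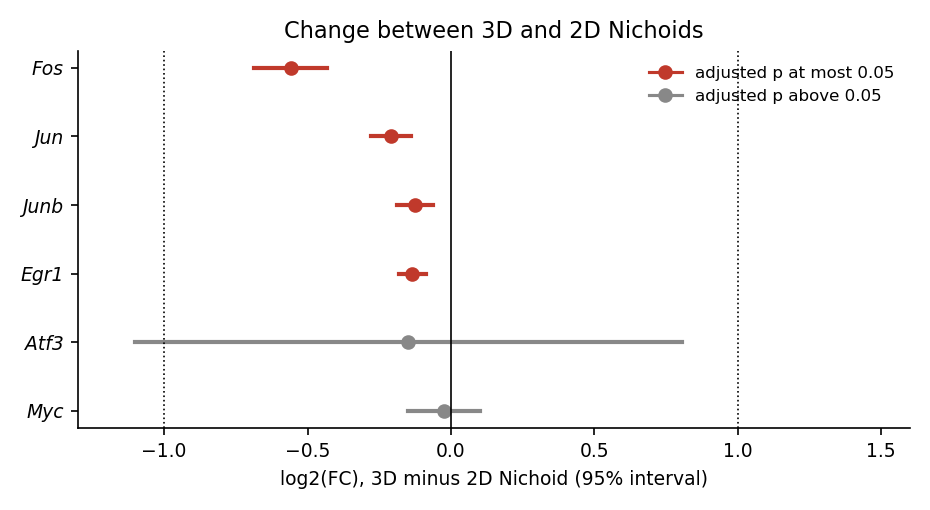
log2(FC) of each gene, 3D minus 2D Nichoids (horizontal axis), with its 95% interval from edgeR as a line and dotted lines at the DEG cutoff of 1 in either direction. The intervals of Fos, Jun, Junb and Egr1 lie below 0 and above -1, and those of Atf3 and Myc include 0.

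The 6 genes passed the filter on low counts, as did 13523 genes in all. The test was passed by 4 of the 6 at an adjusted p value threshold of 0.05, all lower in 3D Nichoids. For comparison, the share of all tested genes past that threshold was 37.8%, with 18.8% lower. That share was not taken over genes of like counts. A higher mean count than Egr1, Junb, Jun and Fos was found in 2.01%, 2.99%, 7.23% and 25.8% of tested genes. For Myc and Atf3, which did not pass, it was 28.4% and 87.3%. Of the 6 genes, 0 were DEGs by edgeR, and 0 by DESeq2 or limma-voom, while 4 had an unadjusted p under 0.05 in each of these tests. That level was reached by 45.4% of all tested genes with edgeR, 44.6% with DESeq2 and 45.7% with limma-voom. In scaled CPM the groups did not overlap in 3 of the 6 genes (Fos, Jun and Egr1), all lower in 3D Nichoids, against 46.9% of all tested genes, 23.2% with the 3D libraries lower. The median log2(FC) of the 6 was -0.14, and that of all tested genes was -0.006. All 6 had a negative log2(FC), as did 50.7% of the tested genes, but that of Myc and of Atf3 each turned positive with 1 library left out.

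**Figure D3:**
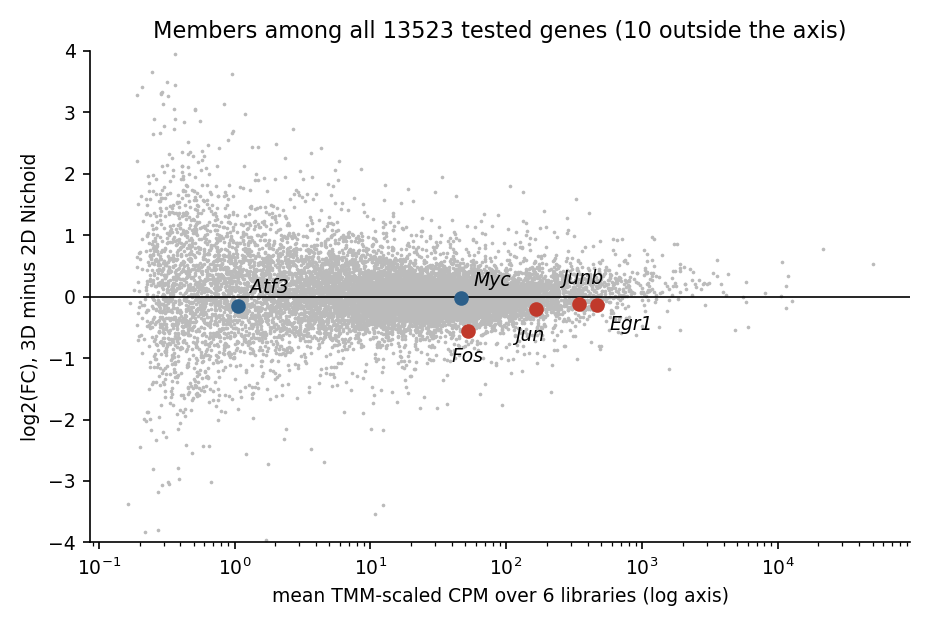
log2(FC), 3D minus 2D Nichoids (vertical axis), against the mean TMM-scaled CPM over 6 libraries (horizontal log axis) for the 13523 tested genes in grey, of which 10 lie outside the axis. The 4 genes past an adjusted p value of 0.05 are red and the other two blue, with Fos lowest at -0.56 and the other 5 between -0.21 and -0.024.

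The changes moved with the scaling, which matters most for the smaller ones. Scaling by library totals alone put the median log2(FC) over the tested genes at -0.11, where TMM put it at -0.006. On that scale the log2(FC) was -0.66 for Fos, -0.31 for Jun, -0.23 for Junb, -0.24 for Egr1 and -0.13 for Myc, and Myc still did not pass (adjusted p value 0.103, edgeR). Such a change of scale moves all genes by about the same amount, so the distance from the median is fixed by construction. That difference, on the log2 scale, was -0.55 for Fos, -0.20 for Jun, -0.13 for Egr1, -0.12 for Junb and -0.018 for Myc. The TMM factors followed the groups, at 0.963 to 0.967 in 3D and 1.034 to 1.039 in 2D libraries. The changes of Fos, Jun, Junb and Egr1 therefore hold relative to the other genes and not as absolute amounts.

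**Figure D4:**
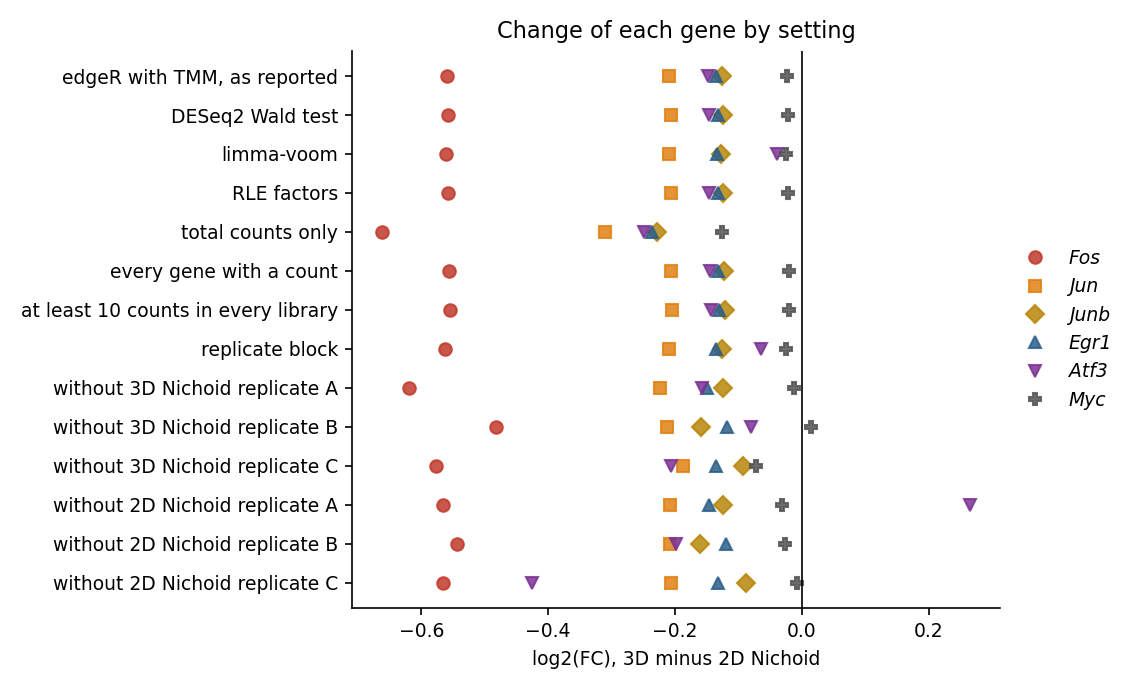
log2(FC) of each gene, 3D minus 2D Nichoids (horizontal axis), in the reported fit and 13 alternative fits (rows), with one marker per gene. Fos lies between -0.66 and -0.48 and is the lowest in every row, while Atf3 ranges from -0.43 to 0.27.

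Ratios between the genes within a library do not depend on the scaling, so 2 of them were tested. The ratio of Fos to Jun counts was 0.293 (A), 0.245 (B) and 0.292 (C) in 3D libraries and 0.349 (A), 0.360 (B) and 0.348 (C) in 2D libraries. All 3D libraries lay below all 2D libraries. On the log2 scale the ratio was -1.86 ± 0.15 (SD, n = 3) against -1.51 ± 0.027 (SD, n = 3), a difference of -0.36 (exact permutation test, two-sided, p = 0.1, the smallest that 3 libraries against 3 allow, and 0.2 after Benjamini-Hochberg adjustment over the pair of ratios).

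The ratio of Junb to Jun, the pair of JUN family members, was 2.10 (A), 2.23 (B) and 2.11 (C) in 3D libraries and 2.02 (A), 1.92 (B) and 2.12 (C) in 2D libraries. Here 2D Nichoid C fell among the 3D libraries. The log2 ratios of 1.10 ± 0.049 and 1.02 ± 0.072 (SD, n = 3 each) differed by 0.083 (two-sided exact permutation test, p = 0.3, and 0.3 after adjustment), which was not beyond the spread between libraries.

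Over all 15 pairs of the 6 genes, 7 ratios did not overlap between the groups, against 42.5% of all pairs of tested genes. Of the 5 pairs with Fos, 4 did not overlap. The 3D minus 2D difference in log2 ratio was -0.36 to Jun, -0.43 to Egr1, -0.44 to Junb and -0.54 to Myc. Fos by itself also separated the groups, and the share of its ratios to all tested genes that do so was not computed. The 4 of 5 is therefore not read as a trait of Fos within this family. The pair of Fos and Atf3 overlapped. Junb and Egr1 kept nearly the same proportion, with a log2 ratio of -0.45 ± 0.087 in 3D Nichoids and -0.46 ± 0.090 in 2D Nichoids (SD, n = 3 each).

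**Figure D5:**
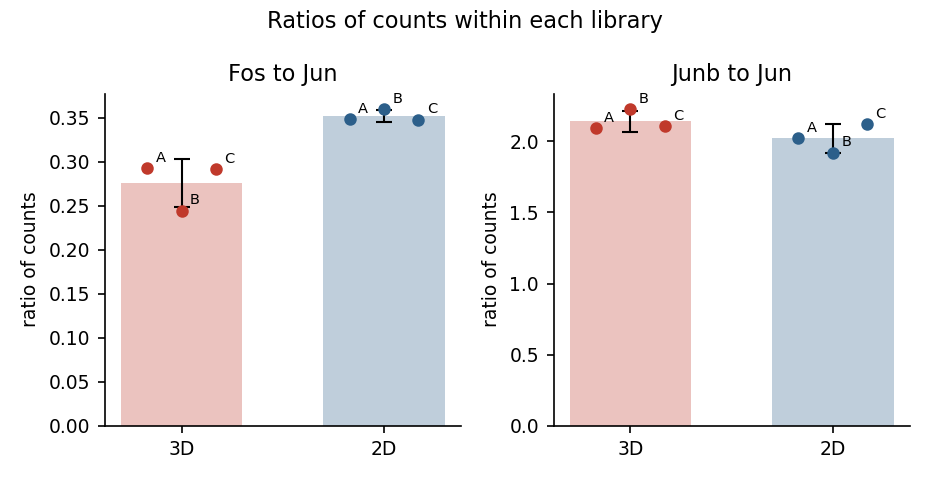
Ratio of counts within each library (vertical axes, each from 0), Fos to Jun and Junb to Jun, with points for replicates A, B and C, bars for the mean and error bars for the SD over 3 libraries. The Fos to Jun ratio is 0.245 to 0.293 in 3D and 0.348 to 0.360 in 2D Nichoids, while the Junb to Jun ratios overlap.

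The profiles of the genes over the 6 libraries were compared as the root mean square difference of log2 CPM, each gene centred on its own mean. Among the 6, the closest pairs were Jun with Egr1 (0.047), Jun with Junb (0.065) and Junb with Egr1 (0.072), and Egr1 with Myc followed at 0.074. Fos lay from 0.20 (Jun) to 0.28 (Myc) from the other abundant members, and Atf3 lay from 0.40 to 0.46 from all of them. Among the tested genes with a mean count of at least 50, 129 of 11609 were within 0.1 of Fos. The number was 2436 for Jun, 2322 for Junb, 2992 for Egr1 and 2685 for Myc. For Atf3 it was 0 of 11610, with the nearest gene at 0.13. Atf3 itself had mean counts of 39 in 3D and 44.3 in 2D Nichoids, below that limit. It was thus compared only with genes counted more often, and its distances include its own large spread between libraries. The measure keeps the size of each change, so genes with small changes lie close to one another and to many others. For Fos, Jun, Junb, Egr1 and Myc the distances and counts of neighbours thus largely restate the log2(FC) values. They are not a separate result. The nearest genes are not named, because their identifiers were not paired with symbols.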

How the data were processed

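Counts of reads per Ensembl gene were analysed for rBMSCs from 3D Nichoids (3 libraries) and 2D Nichoids (3 libraries), grouped by the sample labels. The deposited counts were made by the authors from single-end reads with STAR 2.7.0a and HTSeq 0.12.4 on Rnor_6.0 per the submitters' processing notes, while the paper names a later rat assembly and HTSeq release. They were not normalized. The strand setting and any removal of PCR copies are not given in the sources used here, so reads of an overlapping antisense gene could not be told apart, and counting errors treat reads as independent.

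Genes were filtered with filterByExpr, scaled by TMM and tested by the quasi-likelihood test of edgeR 4.0.16 (R 4.3.3) with Benjamini-Hochberg adjustment over 13523 genes and no covariates. SEs were the log2(FC) divided by the square root of F. The procedure was tested on simulated counts. The changes set there were larger than those of Jun, Junb and Egr1, so recovery of changes that small was not tested. Alternatives were DESeq2 1.42.0, limma-voom (limma 3.58.1), RLE factors, total counts only, 2 other filters, the replicate letter as a block, and each library left out. Count ratios were tested by exact permutation (scipy 1.17.1). The 6 genes, the lists and the tests were chosen with earlier results of these data known. All 6 genes were to be named, and genes of other lists only where identifiers could be paired with symbols. The reference table paired 0 of 32883 identifiers, so those lists and the cell type markers were not analysed here.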

Additional observations from a re-analysis of the deposited data

How the results depend on the processing

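In 13 alternative fits each, Fos, Jun, Junb and Egr1 kept their direction and passed the adjusted p value threshold of 0.05, and Atf3 and Myc stayed above it. With each library left out, the log2(FC) ranged from -0.62 to -0.48 for Fos, -0.22 to -0.19 for Jun, -0.16 to -0.088 for Junb, -0.15 to -0.12 for Egr1, -0.43 to 0.27 for Atf3 and -0.072 to 0.015 for Myc. The sign turned for Atf3 without 2D Nichoid A (0.27) and for Myc without 3D Nichoid B (0.015), each time without passing the test. The counts of 4 genes past the test and 0 DEGs held in all these fits. In the fit with a replicate block by letter, the log2(FC) was -0.56 for Fos, -0.21 for Jun and -0.065 for Atf3, and no call changed. Libraries of one letter did not deviate together (correlations across genes of 0.033, -0.014 and 0.023 for A, B and C), and the letters were therefore not read as pairs. The difference of the Fos to Jun log2 ratio ranged from -0.40 to -0.27 and that of Junb to Jun from 0.047 to 0.12 with each library left out. Over all genes, 5109 passed the adjusted p value and 463 were DEGs, and both counts stayed within 1.5 times under every alternative, but scaling by totals alone gave 1638 genes higher and 4161 lower in 3D Nichoids, against 2560 and 2549 with TMM. For DEGs that scaling gave 215 higher and 238 lower, against 278 and 185. Atf3 had 26 to 66 counts per library, and in 2D Nichoids its spread of 46.4% exceeded the 15.0% from sampling of reads.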
